A study of Mus musculus with 6 samples.

Results

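The 41 genes described here encode the machinery by which a mast cell granule is moved to the plasma membrane, docked, primed and fused. They were taken from a named list of SNARE, Munc, Rab and synaptotagmin genes, with no measured value in its rule, and are 41 of the 35297 genes to which a transcript of the files could be matched. They were measured by RNA sequencing in bone marrow-derived mast cells (BMMCs), the mast cells that grow out of mouse bone marrow in culture. The marrow came from naive wild type mice of 2 inbred strains, BALB/c and C57BL/6, and both strains were grown with stem cell factor, TGF-β1, IL-9 and IL-3. RNA was taken on day 20. There were 3 BALB/c libraries (S9, S10 and S11) and 3 C57BL/6 libraries (S12, S13 and S14), described in the study as 3 biological replicates per strain. The labels name no animal for a library, so the p-values below measure the spread between these libraries.

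A SNARE protein on the granule pairs with SNARE proteins on the target membrane, and the bundle they form pulls both membranes together. Munc18 proteins hold the syntaxins ready, Munc13 proteins prime the granule, Rab GTPases and their effectors bring it to the membrane, and calcium sensors trigger the fusion. Mast cells are known for compound exocytosis, in which granules also fuse with each other, and loss of several of these genes in humans or mice gives disorders of cytotoxic granule release or giant granules.

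Between 29182607 and 38142847 reads per library were assigned to transcripts. All 11 mast cell markers were tested (the test is given below). Of these, 6 were higher and 1 lower in C57BL/6, beside 27.0% higher and 25.9% lower of all genes. Hdc was 2.29-fold higher, and the lower one was Mitf, at 0.854-fold. The 11 markers summed to between 24967 and 25985 CPM in BALB/c and between 26095 and 26653 CPM in C57BL/6. CPM is the share of a library's reads on a gene, scaled to a common library size. Basophil markers summed to between 406 and 418 CPM in BALB/c and between 512 and 523 CPM in C57BL/6. Of the 8 genes on that list, 5 were higher and 1 lower in C57BL/6, beside 27.0% and 25.9% of all genes, and none was at 0 reads throughout. Cd200r3 and Mcpt8 make up most of these sums, and of these 2 only Mcpt8 was higher in C57BL/6. Mcpt8 had 83.95 CPM on average in BALB/c and 182.6 CPM in C57BL/6. Cd200r3 had 310.3 and 296.6 CPM and did not pass the test, nor did Itga2. The lower one was Il18r1, with 13.8 CPM on average in BALB/c and 9.47 CPM in C57BL/6. Ms4a3 was higher, with 1.08 and 2.15 CPM. Near the floor in BALB/c, Cebpa had 0.0532 to 0.157 CPM there and 9.35 to 10.3 CPM in C57BL/6, Prss34 0.0314 to 0.268 and 6.33 to 7.10 CPM, and Ccl9 0.157 to 0.346 and 10.4 to 11.5 CPM. Cebpa, Prss34 and Ccl9 passed the filter on low counts only through C57BL/6. Their calls, part of the 5, were fixed by that filter and are not to be read against the shares of all genes. The macrophage list summed to between 0.705 and 1.63 CPM in BALB/c and between 13.3 and 13.9 CPM in C57BL/6, nearly all of it from Adgre1 and Cd68, with Csf1r, C1qa, C1qb and C1qc at 0 reads in every library. The dendritic cell list summed to between 7.73 and 8.59 CPM in BALB/c and between 37.1 and 38.9 CPM in C57BL/6. Nearly all of it came from Itgax, with 7.63 to 8.46 CPM in BALB/c and 36.8 to 38.8 CPM in C57BL/6. Flt3, Zbtb46 and Xcr1 had at most 0.185 CPM in any library, and 2 of the 6 genes, Siglech and Clec9a, were at 0. The neutrophil, eosinophil and T or NK cell lists reached at most 5.65 CPM in sum in any library, with 6 of 8, 3 of 7 and 4 of 7 genes at 0. The megakaryocyte or platelet list summed to between 1392 and 1447 CPM in BALB/c and between 1846 and 1961 CPM in C57BL/6, nearly all of it from Itga2b and Gp1ba, with Ppbp and Gp9 at 0. The part of these differences in the results below was not tested. In bulk RNA, fewer cells that express a gene and less of its RNA per cell cannot be told apart.

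Of the 41 genes, 36 passed the filter on low counts. Between the strains, 18 of them were higher in C57BL/6 and 6 were lower at an adjusted p under 0.05 (edgeR's quasi-likelihood test, Benjamini-Hochberg adjustment over 12461 genes). Of all genes tested, 27.0% were higher and 25.9% were lower by the same rule, against 50% and 16.7% of the tested members. With a change of over 2-fold as well, Lyst, Sytl2 and Cplx2 were higher and Unc13a was lower, beside 7.73% and 5.54% of all genes. Cplx2 had no reads in BALB/c and passed the filter through C57BL/6 alone, so its call was fixed by the filter and is no result to read against these shares. The other 20 calls were small, between -0.67 and 0.63 on the log2 scale (C57BL/6 over BALB/c throughout). For 28 of the 36 genes all libraries of one strain lay above all of the other, which also held for 61.9% of all genes. The median log2 fold change of the tested members was 0.13, both as fitted and with Cplx2 set to its lower bound, and that of all genes was -0.01.

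How many of the small differences were called in each direction depended on how the libraries were scaled. The main scaling used trimmed means of M values (TMM). With plain library size in its place, the median of all genes moved by -0.14, and 9 members were higher and 13 lower, beside 18.3% and 44.3% of all genes. Changes of call or direction with the scaling are given below at the genes they touch. Lyst, Sytl2, Stx3, Syt9, Snap23, Nsf and Rab12 stayed higher, and Unc13a, Sytl3, Stx2 and Rab27b stayed lower, past the threshold in every alternative that was run.

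**Figure D1:**
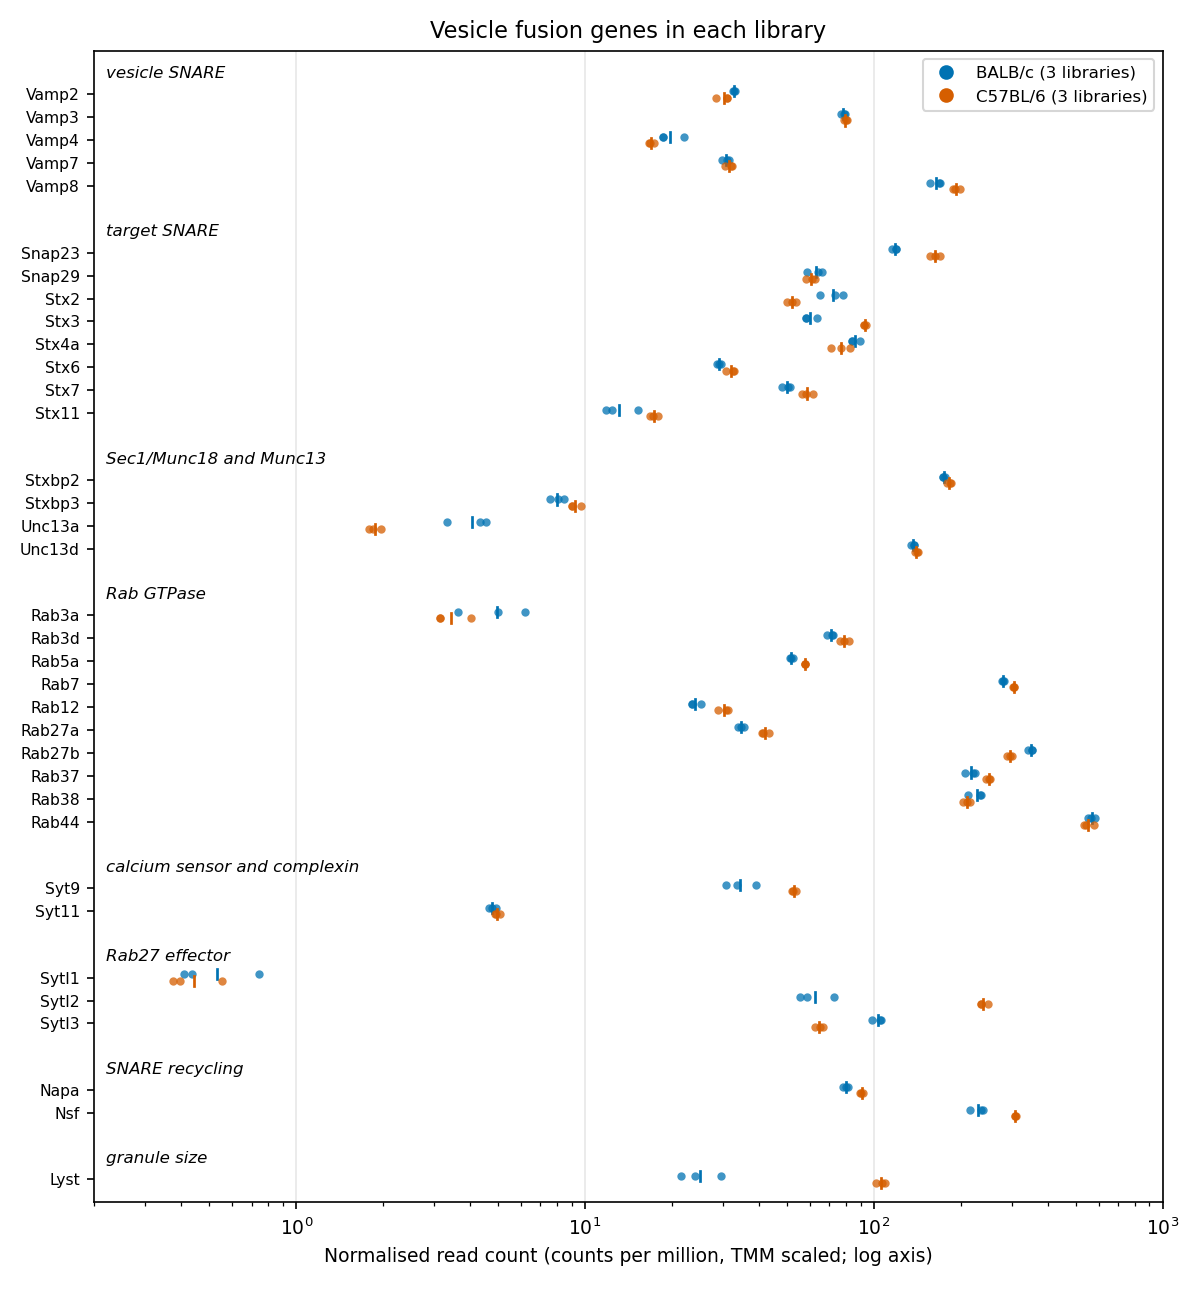
Normalised read count of 35 of the 36 tested genes on a log axis in CPM with TMM scaling, grouped by role; each point is a library, blue for BALB/c and orange for C57BL/6, and each short line is the mean of 3 libraries. Cplx2 is left out because it had 0 reads in BALB/c; the points of Lyst and Sytl2 are the most widely separated, at 25.1 against 106 CPM and 62.4 against 239 CPM on average.

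Per length, the vesicle SNARE Vamp8 led the list in both strains. Its deposited TPM (the authors' level per library, corrected for transcript length) was 385 on average in BALB/c and 397 in C57BL/6. Rab44, Rab38, Rab7 and Rab37 followed in BALB/c with 239.5, 229.6, 199.9 and 152 TPM. In C57BL/6 the order after Rab44 was Rab7, Rab38 and Rab37, with 192, 188 and 154 TPM. The ranges of Rab44 and Rab38 overlapped in BALB/c, and those of Rab7 and Rab38 overlapped in C57BL/6, so the order of these neighbours is not fixed. Levels then fell to under 1 TPM for Unc13a, Sytl1, Cplx2, Syt3, Doc2a, Sytl4, Exph5 and Syt2.

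Among the 5 vesicle SNAREs, 1 was higher, 1 lower and 3 did not pass the test, beside 27.0% higher and 25.9% lower of all genes. By plain library size 0 were higher and 3 lower, beside 18.3% and 44.3% of all genes. Vamp8, the vesicle SNARE best known for regulated granule release in mast cells, had 156, 168 and 170 CPM in BALB/c and 199, 191 and 189 CPM in C57BL/6. The 2 ranges did not overlap, and the difference was small, at 0.23 ± 0.04 (log2 fold change ± SE, adjusted p = 0.00214). Vamp8 was no longer called with plain library size or on the TPM scale (adjusted p = 0.149 to 0.389). Within the family Vamp8 supplied 78.7% ± 0.746 of the VAMP TPM in BALB/c and 81.3% ± 0.462 in C57BL/6 (SD, n = 3). Vamp4, a SNARE of the trans-Golgi network and of immature granules, was lower by 0.23 on the log2 scale (log2 fold change -0.23, adjusted p = 0.0392). It was not called without S11, S12, S13 or S14 (adjusted p = 0.0726 to 0.118), nor with DESeq2, with or without length offsets, or with unmatched transcripts kept (adjusted p = 0.0600 to 0.0783). Vamp2, Vamp3 and Vamp7, which serve neuronal release, recycling endosomes and late endosomes, had log2 fold changes of -0.12, 0.03 and 0.04, the last 2 with the opposite sign under plain library size. Vamp2 was called lower with plain library size, upper-quartile factors and on the TPM scale (adjusted p = 0.00166 to 0.0445). Vamp3 was called lower with plain library size and on the TPM scale (adjusted p = 0.00559 to 0.0147).

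Of the 8 target SNAREs, 5 were higher and 2 lower in C57BL/6, and 1 did not pass the test, beside 27.0% higher and 25.9% lower of all genes. Under plain library size 2 were higher and 3 lower, beside 18.3% and 44.3% of all genes. Snap23, the partner of plasma membrane syntaxins in non-neuronal cells, measured 120, 115 and 119 CPM in BALB/c and 162, 169 and 157 CPM in C57BL/6. Every C57BL/6 library lay above every BALB/c library, and the log2 fold change was 0.46 ± 0.04 (adjusted p = 1.69e-05). Snap29, a relative that acts on inner membranes, showed a log2 fold change of -0.05 ± 0.05 (adjusted p = 0.426). Snap29 was called lower with plain library size and on the TPM scale (adjusted p = 0.0113 to 0.0163).

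Stx3, a syntaxin found on granules as well as on the plasma membrane, measured 58.2, 58.4 and 63.5 CPM in BALB/c and 94.2, 92.6 and 92.7 CPM in C57BL/6. The groups were far apart and the C57BL/6 libraries lay close together, with a log2 fold change of 0.63 ± 0.04 (adjusted p = 3.1e-06). Stx2, a plasma membrane syntaxin also called epimorphin, went the other way, with 78.0, 73.5 and 65.1 CPM in BALB/c and 50.1, 52.0 and 53.6 CPM in C57BL/6. Its log2 fold change was -0.48 ± 0.07 (adjusted p = 0.00027), and again no library crossed over. The TPM of Stx3 was 0.744 ± 0.108 times that of Stx2 in BALB/c and 1.59 ± 0.0693 times in C57BL/6, so the more abundant of these syntaxins differed between the strains.

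Stx4a, a plasma membrane syntaxin, had the highest TPM of this role on the mean of all libraries and in BALB/c, while in C57BL/6 Snap23 was above it (96.9 against 79.5 TPM). Stx4a had 84.3, 89.7 and 84.2 CPM in BALB/c and 82.6, 71.2 and 76.9 CPM in C57BL/6. The nearest libraries of the strains almost met, at a log2 fold change of -0.16 ± 0.06 (adjusted p = 0.0379). It was not called without S10, S11, S13 or S14 (adjusted p = 0.0504 to 0.139), nor with length offsets in DESeq2 or unmatched transcripts kept (adjusted p = 0.0522 and 0.0735). Stx7 and Stx11, syntaxins of late endosomes and of lytic granule release, were higher by 0.23 and 0.40 on the log2 scale, and Stx6, of the trans-Golgi network, by 0.14. None of these 3 was called with plain library size or on the TPM scale (adjusted p = 0.0527 to 0.932), where Stx6 had the opposite sign. Stx6 was also not called without S9, S10, S11, S13 or S14 (adjusted p = 0.0561 to 0.119), nor with DESeq2, with or without length offsets, with length offsets in edgeR, without the filter or with upper-quartile factors (adjusted p = 0.0578 to 0.182).

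**Figure D2:**
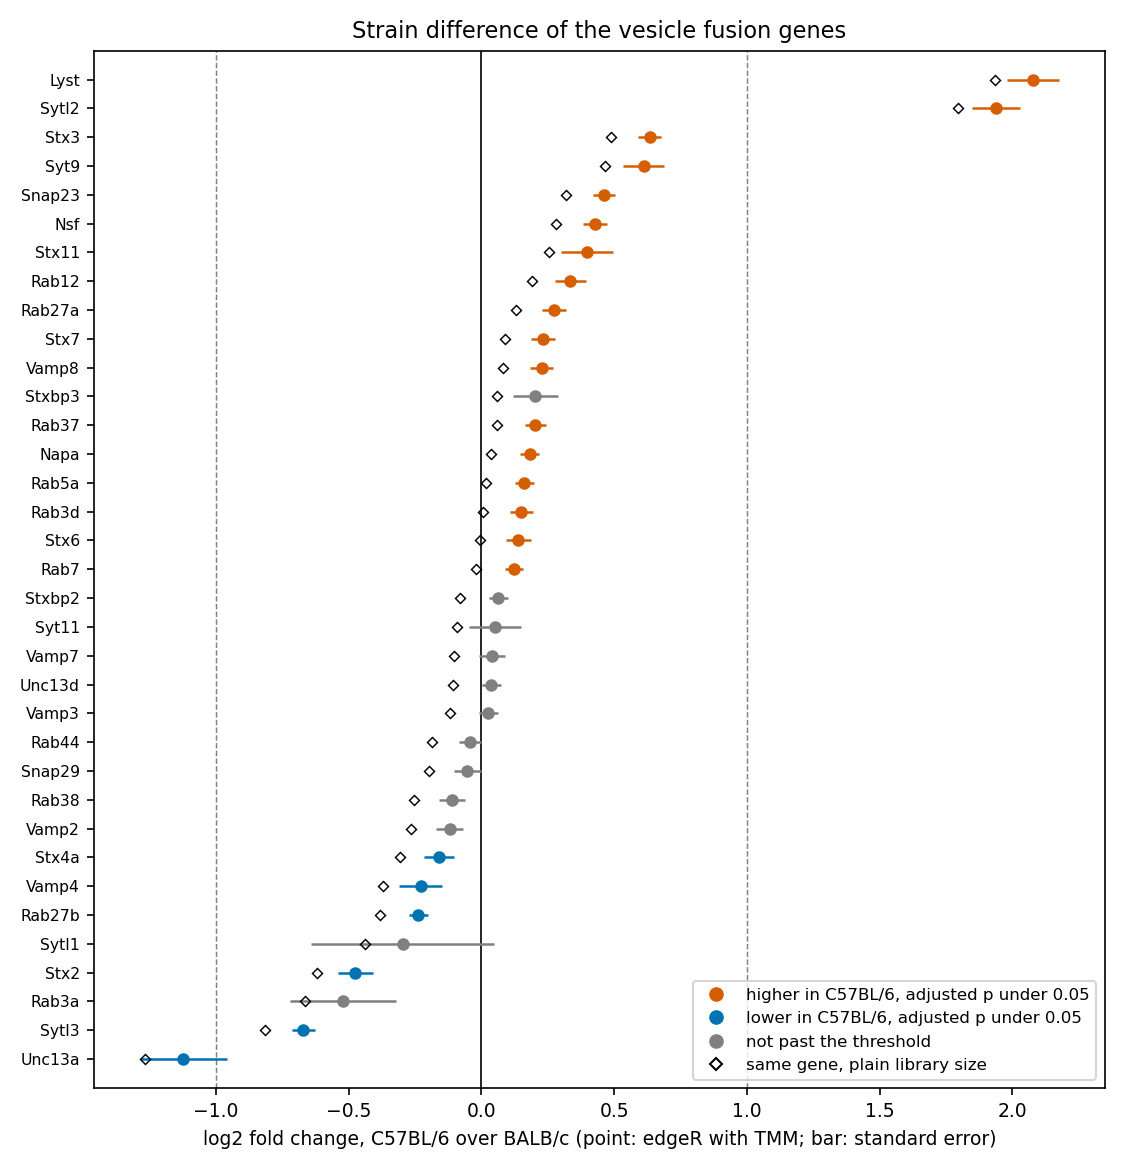
Log2 fold change of 35 tested genes, C57BL/6 over BALB/c, with the standard error as a bar, orange for higher, blue for lower and grey for not past the threshold; dashed lines mark 2-fold and open diamonds show the same gene under plain library size. All diamonds lie to the left of their points, the median shift over all genes being -0.14, and the 2 largest values, Lyst and Sytl2, stay beyond 1 under both scalings.

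Of the 4 Sec1/Munc18 and Munc13 genes, 0 were higher and 1, Unc13a, was lower in C57BL/6, beside 27.0% and 25.9% of all genes. Plain library size gave 0 higher and 2 lower, beside 18.3% and 44.3% of all genes. Stxbp2 (Munc18-2), which holds Stx3 and Stx11 ready for fusion, had 174, 176 and 173 CPM in BALB/c and 185, 179 and 184 CPM in C57BL/6. The ranges did not meet, but the difference of 0.06 ± 0.03 on the log2 scale did not pass the test (adjusted p = 0.158), and it had the opposite sign with plain library size and on the TPM scale, the latter with a call (adjusted p = 0.0411 and 0.0413). Unc13d (Munc13-4), the priming factor of cytotoxic and mast cell granules, had a log2 fold change of 0.04 ± 0.03 (adjusted p = 0.394). With plain library size and on the TPM scale its sign turned and it was called lower (adjusted p = 0.0118 to 0.0304). Stxbp3 (Munc18-3), a partner of syntaxin 4, had a log2 fold change of 0.20 ± 0.09 (adjusted p = 0.0744).

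Unc13a (Munc13-1), the priming factor best known from synapses, was the member of this role past both thresholds. It had 106, 135 and 163 reads in BALB/c against 63, 50 and 63 in C57BL/6, or 3.33, 4.53 and 4.34 CPM against 1.97, 1.85 and 1.78 CPM. All 3 C57BL/6 libraries were below all 3 BALB/c libraries, with a log2 fold change of -1.12 ± 0.16 (adjusted p = 0.000371). On the scale log2(TPM + 1), which shrinks the change of low genes, the value was -0.45, still called but under 2-fold. Its level was low in both strains, at 0.31 to 0.881 TPM, and the TPM of Unc13d was 61.8 ± 9.12 times that of Unc13a in BALB/c and 137 ± 3.33 times in C57BL/6. Exons of Unc13a overlap those of Colgalt1 on the opposite strand, which had 4171 to 5250 reads in BALB/c and 5285 to 6759 reads in C57BL/6. The library kit keeps strand, and whether the assignment of reads used it is not given in the sources used here.

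The Rab GTPases held 6 higher and 1 lower gene among 10, all under 2-fold, beside 27.0% and 25.9% of all genes. Scaled by plain library size, 2 were higher and 4 lower, beside 18.3% and 44.3% of all genes. Rab27b and Rab27a tether secretory granules at the membrane. Rab27b, the more abundant, had 354, 341 and 352 CPM in BALB/c and 300.3, 297 and 290 CPM in C57BL/6, with a log2 fold change of -0.24 ± 0.04 (adjusted p = 0.000454). Rab27a had 35.6, 34.6 and 33.7 CPM in BALB/c and 40.96, 41.4 and 43.2 CPM in C57BL/6, with a log2 fold change of 0.27 ± 0.05 (adjusted p = 0.000861). The paralogs therefore differed in opposite directions, neither with overlap between the strains. The TPM of Rab27b was 4.15 ± 0.125 times that of Rab27a in BALB/c and 2.90 ± 0.133 times in C57BL/6, a ratio that the scaling between libraries does not touch. The call for Rab27a was not made on the TPM scale.

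Rab12, linked to granule transport along microtubules, measured 23.4, 23.5 and 25.1 CPM in BALB/c and 31.4, 28.8 and 30.7 CPM in C57BL/6. All C57BL/6 libraries were above, at a log2 fold change of 0.34 ± 0.06 (adjusted p = 0.000972). The other called Rab genes were Rab37, found on mast cell granules, Rab5a, of early endosomes, Rab3d, of secretory granules, and Rab7, of late endosomes. They were higher by 0.20, 0.16, 0.15 and 0.12 on the log2 scale. None of these 4 was called with plain library size or on the TPM scale (adjusted p = 0.202 to 0.907), and with plain library size Rab7 took the opposite sign, as did Rab5a, Rab3d and Rab7 on the TPM scale. Without S14, Rab3d and Rab7 were not called either (adjusted p = 0.0612 and 0.0524). Rab3a, a Rab of synaptic vesicles, and Rab38, which serves lysosome-related organelles, did not pass the test, with log2 fold changes of -0.52 ± 0.20 and -0.11 ± 0.05. Rab3a was called lower without S9 or S12 (adjusted p = 0.00884 to 0.0445), and with plain library size, upper-quartile factors, no filter and on the TPM scale (adjusted p = 0.0169 to 0.0470). Rab38 was called lower without S9 (adjusted p = 0.0120), and with plain library size, upper-quartile factors and on the TPM scale (adjusted p = 0.000454 to 0.0488).

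Rab44, a large Rab GTPase of hematopoietic cells with a role in granule release, had the highest mean TPM of the Rab genes on the list, and its total did not pass the test. It had 567, 584 and 553 CPM in BALB/c and 577, 543 and 535 CPM in C57BL/6. These ranges overlapped, with a log2 fold change of -0.04 ± 0.04 (adjusted p = 0.422). With plain library size and on the TPM scale it was called lower in C57BL/6, at -0.15 to -0.19 (adjusted p = 0.00578 to 0.0358). The transcripts that made up the total were not the same. The gene lies on chr17:29333009-29367954 (GRCm39, plus strand), and 8 of its transcripts are listed.

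The Rab44 transcript of 3690 bases took 62.0%, 60.8% and 60.7% of the gene's TPM in BALB/c, against 11.6%, 17.1% and 13.1% in C57BL/6. The transcript of 3612 bases took 18.3%, 16.5% and 17.9% in BALB/c, against 46.4%, 42.3% and 47.8% in C57BL/6. The transcript with the largest share in one strain thus held between 11.6% and 18.3% in the other, and no library fell between. The means differed by -47.3 and 27.9 percentage points. Computed from reads in place of TPM, the differences were -48.9 and 30.9 points. These were the only transcripts of the 33 members at 1 TPM or more whose share differed by over 20 points, out of 53 that reached 10% of their gene in either strain. Salmon divides reads that fit several transcripts between them, so these shares are estimates. They are given as a description, with no test. The 3690-base transcript is a curated RefSeq entry and the 3612-base one a predicted entry. The transcripts of 3149 and 2484 bases, also predicted, held more in every C57BL/6 library than in any BALB/c library. Their mean shares were 7.52% and 7.45% in BALB/c against 13.5% and 15.2% in C57BL/6.

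**Figure D3:**
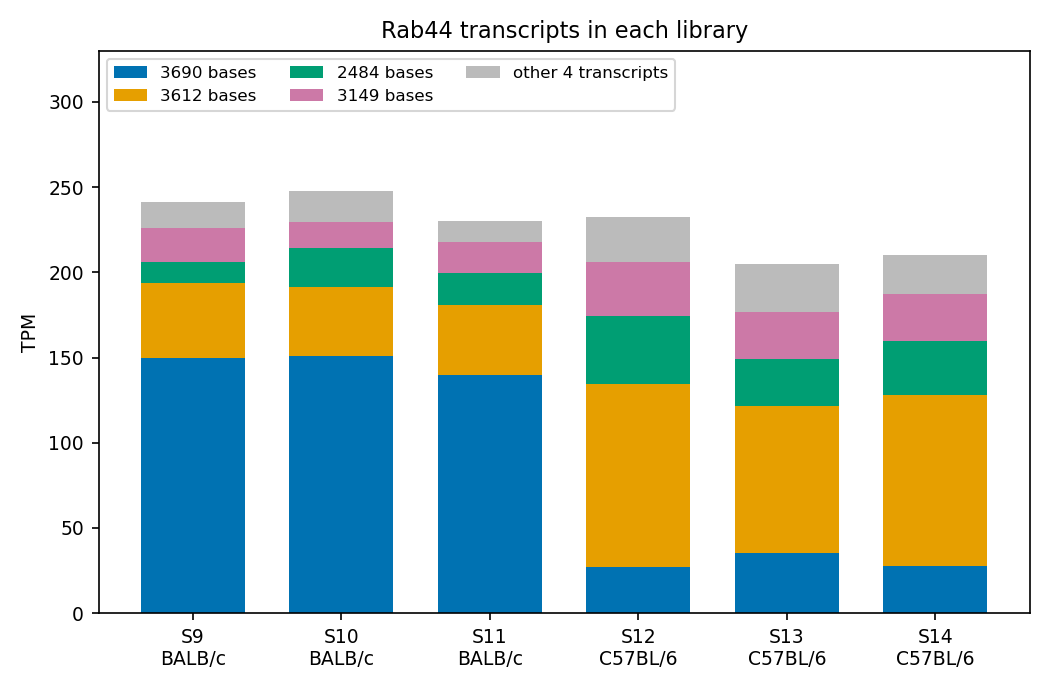
TPM of the Rab44 transcripts in each library as stacked bars, each color a transcript named by its length in bases and grey the sum of the other 4. The bars are 205 to 248 TPM high, while the 3690-base transcript (blue) makes up 140 to 151 TPM in BALB/c and 26.9 to 35.0 TPM in C57BL/6.

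Among calcium sensors and complexins, Syt9 was the synaptotagmin with the most reads in every library. A calcium-binding protein of secretory granules, it had 39.1, 30.8 and 33.6 CPM in BALB/c and 51.9, 52.4 and 53.8 CPM in C57BL/6. The strains did not overlap, and the log2 fold change was 0.61 ± 0.08 (adjusted p = 0.000153). Syt11 had a log2 fold change of 0.05 ± 0.10 (adjusted p = 0.688), with the opposite sign and no call with plain library size and on the TPM scale.

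Cplx2, the complexin that binds assembled SNARE bundles, had reads in C57BL/6 only. It had 0 reads in all 3 BALB/c libraries and 35, 55 and 90 reads in the C57BL/6 libraries. Set against a floor of 3 reads in each BALB/c library, the mean level of 1.89 ± 0.734 CPM in C57BL/6 was at least 20.6-fold higher. Cplx2 passed the filter on low counts only through C57BL/6, and so had to differ between the strains to be tested at all. At 0.297 to 0.701 TPM it remained among the lowest members in C57BL/6 too.

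The other members of this role were at or near the limit of detection. Syt2 had 0 reads in every library. Syt3 had 3, 5 and 4 reads in BALB/c and 0 in each C57BL/6 library, where a count of 0 allows up to 3 reads. Doc2a, another calcium-binding C2 protein, had 2, 0 and 2 reads in BALB/c against 3, 0 and 1 in C57BL/6. Differences in these genes were not detectable at this depth under the filter used. Without the filter Syt3 was called lower in C57BL/6 (adjusted p = 0.0148).

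Of the 5 Rab27 effectors 3 were tested, and 1 was higher and 1 lower, beside 27.0% and 25.9% of all genes. The counts were the same with plain library size, beside 18.3% and 44.3% of all genes. Sytl2 (Slp2-a) and Sytl3 (Slp3-a) are synaptotagmin-like proteins that bind Rab27 on the granule and lipid at the membrane. Sytl2, on chr7:89951453-90059927 (GRCm39, plus strand), measured 72.7, 55.6 and 58.8 CPM in BALB/c and 235, 248 and 235 CPM in C57BL/6. Each C57BL/6 library was over 3 times the highest BALB/c library, and the log2 fold change was 1.94 ± 0.09 (adjusted p = 2.67e-07). Sytl3, on chr17:6926492-7005838 (GRCm39, plus strand), measured 105, 106 and 98.7 CPM in BALB/c and 65.1, 62.5 and 66.7 CPM in C57BL/6. All C57BL/6 libraries were lower, with a log2 fold change of -0.67 ± 0.04 (adjusted p = 2.24e-06).

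Of the TPM of the 5 effectors on the list, Sytl2 held 26.6%, 20.1% and 22.6% in S9, S10 and S11, against 65.0%, 66.7% and 64.4% in S12, S13 and S14. Sytl3 held 76.4% ± 3.23 in BALB/c and 34.3% ± 1.26 in C57BL/6 (SD, n = 3). The effector with the larger share was therefore Sytl3 in every BALB/c library and Sytl2 in every C57BL/6 library. The sum of the 5 was 85.0 ± 5.37 TPM in BALB/c and 102 ± 2.85 TPM in C57BL/6. Sytl1 had 13, 13 and 28 reads in BALB/c against 12, 15 and 14 in C57BL/6, and its log2 fold change of -0.30 ± 0.34 did not pass the test (adjusted p = 0.497). Sytl4 (granuphilin), with at most 2 reads in a library, and Exph5 (Slac2-b), also with at most 2, were not tested. Sytl4 had 2, 2 and 1 reads in BALB/c against 0, 2 and 0 in C57BL/6, and Exph5 had 2, 0 and 1 against 0, 2 and 2.

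**Figure D4:**
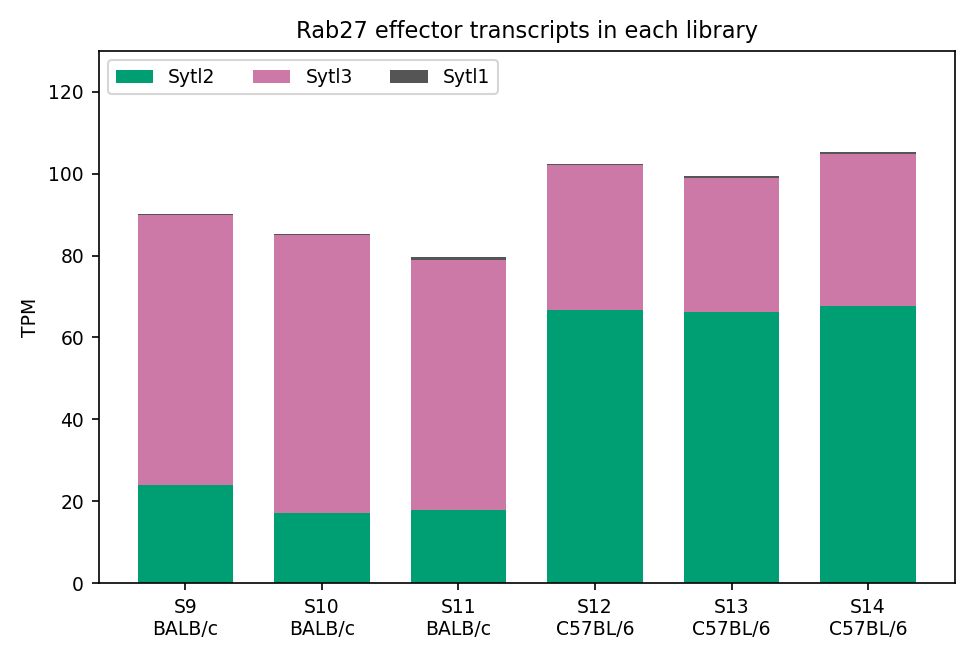
TPM of Sytl2, Sytl3 and Sytl1 in each library as stacked bars. Sytl2 (green) measures 17.1 to 24.0 TPM in BALB/c and 66.3 to 67.7 TPM in C57BL/6, and Sytl3 (pink) 61.0 to 67.7 TPM in BALB/c and 32.7 to 37.1 TPM in C57BL/6.

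Sytl3 shares sequence with other genes. Of its words of 31 bases, 19.8% occur in transcripts of Gm29719 and 14.1% in transcripts of Gm29721, copies on the minus strand of chromosome 17. Of the same words, 9.03% occur in transcripts of ENSMUSG00000122542, a long noncoding RNA gene with no symbol. Gm29721 had 235, 226 and 249 reads in BALB/c and 1, 0 and 0 reads in C57BL/6. Gm29719 had 137, 95 and 90 reads in BALB/c and 172, 116 and 167 reads in C57BL/6. With the reads of all 3 genes summed, an alternative chosen after seeing the data, the log2 fold change was -0.71 (adjusted p = 2.43e-06). The largest share of any other member was 7.30%, of Syt11 with 1500004A13Rik, among the 40 whose transcripts could be found by name. Exons of Sytl3 also overlap those of Ezr on the opposite strand, with 7729 to 9757 reads in BALB/c and 11727 to 15534 reads in C57BL/6. Exons of Snap23, Snap29, Stx3, Rab3a, Syt11 and Doc2a likewise overlap those of opposite-strand genes with at least 370 reads in every library. Rab3a, with 85 to 188 reads, lies opposite Mpv17l2, with 809 to 1143 reads. The limit on strand given for Unc13a holds for these genes too.

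The 2 genes on the list that take the SNARE bundle apart after fusion were higher in C57BL/6, beside 27.0% of all genes. With plain library size 1 of the 2 was higher, beside 18.3% of all genes. Nsf, the ATPase that does this work, had 235, 216 and 239 CPM in BALB/c and 309, 309 and 310 CPM in C57BL/6. The C57BL/6 libraries were nearly identical and all above, with a log2 fold change of 0.43 ± 0.04 (adjusted p = 4.96e-05). Napa (alpha-SNAP), its adaptor, was higher by 0.18 ± 0.04 (adjusted p = 0.00227), a call not made with plain library size or on the TPM scale (adjusted p = 0.390 to 0.632).

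Lyst, the gene of Chediak-Higashi syndrome and of the beige mouse, whose loss gives giant granules, had a log2 fold change close to that of Sytl2. Lyst was ahead with TMM, and Sytl2 on the scale log2(TPM + 1), with 1.73 against 1.59 for Lyst. It had 945, 718 and 810 reads in BALB/c against 3399, 2957 and 3602 in C57BL/6. In CPM this was 29.7, 24.1 and 21.5 against 106, 109 and 102, so every C57BL/6 library was over 3 times every BALB/c library. The log2 fold change was 2.08 ± 0.10, or 4.22-fold (adjusted p = 2.9e-07). Its level per length was 2.28 to 3.22 TPM in BALB/c and 9.75 to 10.3 TPM in C57BL/6. The gene lies on chr13:13764902-13953388 (GRCm39, plus strand).

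Lyst and Unc13a, which were past both thresholds in opposite directions, have RefSeq windows from 250 bases before to 50 bases after the annotated start. They are printed 5′ to 3′ to show the sequence around the annotated start of each (RefSeq, GRCm38.p6), with the 50 bases from the start on in capitals. Where transcription begins in these cells was not tested. The Lyst window is chr13:13590159-13590458 on the plus strand and that of Unc13a is chr8:71671708-71672007 on the minus strand.
Lyst: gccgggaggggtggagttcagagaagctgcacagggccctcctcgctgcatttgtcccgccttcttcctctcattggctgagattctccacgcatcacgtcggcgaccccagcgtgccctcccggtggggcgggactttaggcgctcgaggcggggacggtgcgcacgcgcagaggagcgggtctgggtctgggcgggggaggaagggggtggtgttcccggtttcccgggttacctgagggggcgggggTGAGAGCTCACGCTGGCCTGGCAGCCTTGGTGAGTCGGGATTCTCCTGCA
Unc13a: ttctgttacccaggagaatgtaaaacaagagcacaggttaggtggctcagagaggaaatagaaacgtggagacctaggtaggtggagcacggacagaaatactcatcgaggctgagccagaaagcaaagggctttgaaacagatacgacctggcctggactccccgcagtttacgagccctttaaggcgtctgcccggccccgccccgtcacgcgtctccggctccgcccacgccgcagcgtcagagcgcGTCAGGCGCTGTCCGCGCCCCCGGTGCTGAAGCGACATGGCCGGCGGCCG
Both windows are rich in G and C, with 68% for Lyst and 61.3% for Unc13a against a median of 52.7% over the 32851 windows of the table. They hold 24 and 27 CG pairs, against a median of 7. Neither holds CACGTG or CATGTG, the letters bound by MITF and its relatives, nor AGATAA or TGATAA, the letters bound by GATA factors, on either strand. These letters stand in 7.15%, 14.2%, 11.2% and 9.05% of all windows. In each of these 2 windows, 31 of the bases in capitals also occur in a GENCODE transcript of the same gene. The Cplx2 window of the table is not printed, since the same bases there occur in a transcript of Gm48623 and not of Cplx2, and Sytl2 is named only.

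The rest of the machinery was covered by 182 further genes in 7 families. Of the 135 that were tested, 46 were higher and 27 lower in C57BL/6, or 34.1% and 20%, beside 27.0% and 25.9% of all genes. Under plain library size 24 were higher and 54 lower, beside 18.3% and 44.3% of all genes. Over 2-fold, 4 were higher and 3 lower, beside 7.73% and 5.54% of all genes. One of the 4, Rab6b, had a call fixed by the filter on low counts and is not to be read against these shares. Those over 2-fold with at least 100 counts per library on average were Mctp1, Unc13b and Rab6b. The others had fewer reads and are named after their values were seen. Stxbp6 was higher, at 1.08 ± 0.27 (log2 fold change ± SE, adjusted p = 0.00817). Mlph (melanophilin, a Rab27a effector), Rab4a and Rab36 were lower, at -2.44 ± 0.27, -1.87 ± 0.23 and -1.06 ± 0.25 (adjusted p = 7.34e-05, 0.000141 and 0.00697). Mlph had 61, 70 and 64 reads in BALB/c against 13, 12 and 9 reads in C57BL/6. Mctp1, a membrane protein with C2 domains, had 105, 103 and 100.2 CPM in BALB/c and 259, 275 and 258 CPM in C57BL/6, with a fold change on the log2 scale of 1.36 ± 0.04 (adjusted p = 1.94e-08). Unc13b (Munc13-2), a relative of Unc13a and Unc13d, had 15.5, 13.5 and 12.3 CPM in BALB/c and 36.1, 36.6 and 35.4 CPM in C57BL/6, with a fold change on the log2 scale of 1.39 ± 0.08 (adjusted p = 1.2e-06). So of the Munc13 genes, Unc13b was higher, Unc13a lower and Unc13d not called.

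Rab6b, a Golgi Rab known mainly from neurons, had 3, 2 and 1 reads in BALB/c and 473, 318 and 400 reads in C57BL/6. Like Cplx2, it passed the filter on low counts only through C57BL/6 and so had to differ to be tested. The ratio of the summed levels was 209, with a 95% exact interval of 95.6 to 569.7 that covers counting error only. The libraries of the strains were far apart. By family, the exocyst, which tethers vesicles to the membrane, had 7 genes higher, 1 lower and 1 not called out of 9, with a range of -0.47 to 0.45 on the log2 scale. With plain library size 5 of them were higher and 2 lower. Of the other 21 SNAREs tested, 6 were higher and 6 lower, but 2 and 10 with plain library size. The shares of all genes were 27.0% and 25.9%, and 18.3% and 44.3% with plain library size. No gene of these 2 families passed 2-fold.

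**Figure D5:**
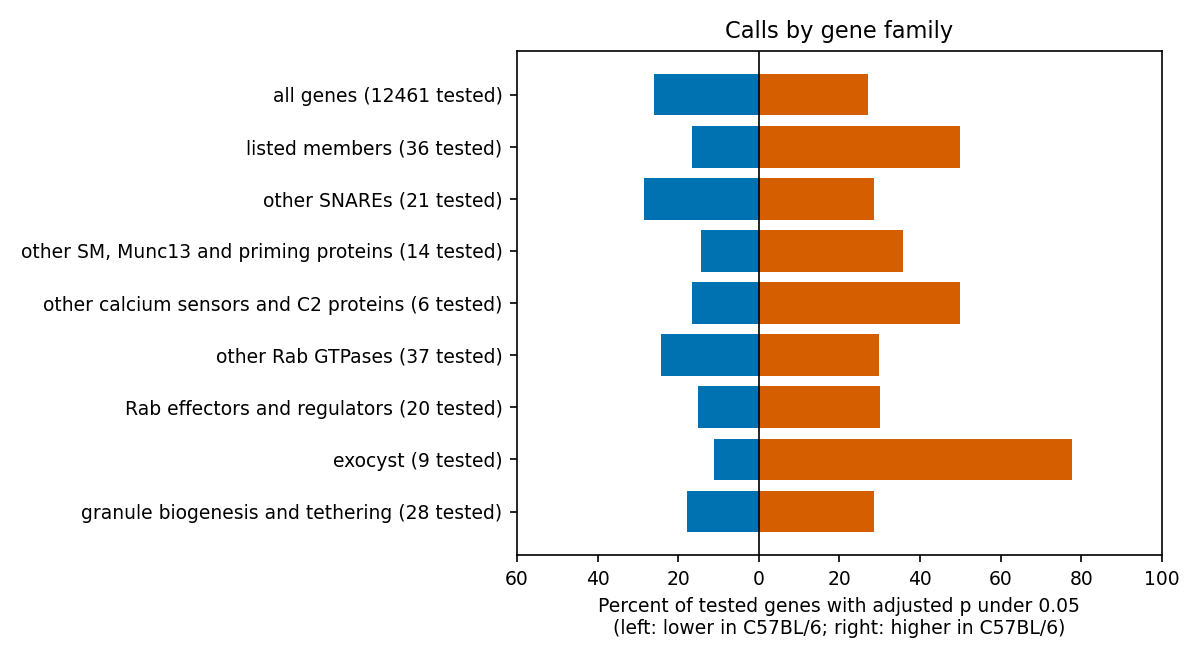
Percent of tested genes of each family with an adjusted p under 0.05 under TMM scaling, higher in C57BL/6 to the right (orange) and lower to the left (blue); the number of genes tested stands beside each name. The listed members reach 50% to the right and 16.7% to the left, all genes 27.0% and 25.9%.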

How the data were processed

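RNA of 3 BALB/c and 3 C57BL/6 BMMC cultures was compared. The authors made stranded mRNA libraries, sequenced them paired-end, checked the reads with FastQC 0.11.5 and assigned them to transcripts with Salmon 0.8.2. The submitters' notes name GRCm39. The methods name Ensembl, while the files list RefSeq transcripts. For each transcript the authors deposited estimated counts (rounded here after summing per gene) and TPM, beside transcript lengths. The reference strain is C57BL/6, and mapping against a BALB/c genome was not analysed here.

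Of 129698 transcripts, 106440 were matched by accession to genes (RefSeq, GRCm38.p6). Between 2.69% and 3.12% of reads per library stayed unmatched and out of the tests. Gene coordinates are those of GENCODE vM39. Gene counts were tested with edgeR 4.0.16 (R 4.3.3): TMM factors, filterByExpr with a minimum count of 10, and the quasi-likelihood test of strain. Calls needed a Benjamini-Hochberg adjusted p under 0.05 over 12461 genes, or this and over 2-fold. CPM values were scaled with the same factors. The biological coefficient of variation was 0.0665. Replicate libraries differed by more than sampling noise (chi-square per degree of freedom 6.60 to 13.6), so each counted as 1.

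Members and lists were chosen with earlier results of these data known. Library values were printed for members past both thresholds, the 10 smallest adjusted p under 2-fold, the highest TPM of each role, and low-count members with reads. Other pathway genes were named if past both thresholds at a mean of 100 counts or more, and transcripts if their share moved by over 20 points. Alternatives were DESeq2 1.42.0 with and without length offsets, edgeR with length offsets, DESeq2 size factors, upper-quartile factors or plain library size, no filter, a minimum of 10 counts per library throughout, log2 of TPM plus 1 or plus 0.1 in limma 3.58.1, unmatched transcripts kept, and each library left out, with Sytl3 summed with its copies added after seeing the data.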

Additional observations from a re-analysis of the deposited data

How the results depend on the processing

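No paired analysis was possible because the libraries of the strains share no replicate number. Each tested member was refitted under 18 alternatives (17 for Cplx2, which did not reach 10 counts in every library). Of these 647 fits, 563 kept the side of the threshold with no called value changing sign, 44 lost the call, 22 gained it and 18 turned sign with a call in either fit. Among the 563, uncalled values of Vamp7, Syt11, Stxbp2, Rab44 and Sytl1 changed sign in some fits. The 18 did so on the TPM scale or with plain library size, which leave the median of all genes lower by 0.14 to 0.17 than TMM does (median shift -0.14 to -0.17). On log2(TPM + 0.1), log2(TPM + 1) and plain library size in that order, the log2 fold change was -0.15, -0.15 and -0.12 for Vamp3, -0.15, -0.14 and -0.11 for Unc13d, -0.046, -0.044 and -0.0051 for Stx6, and -0.0559, -0.0557 and -0.022 for Rab7. On the 2 TPM scales it turned to -0.11 and -0.11 for Stxbp2, -0.028 and -0.027 for Rab3d, and -0.0160 and -0.0156 for Rab5a.

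In the same order, 8, 8 and 9 members were higher and 14, 14 and 13 lower at an adjusted p under 0.05. Of other pathway genes, 12, 12 and 24 were higher and 58, 58 and 54 lower. Of all genes, 2029 and 2035 were higher on the 2 TPM scales, and 5830, 5834 and 5520 were lower with all 3. Counts over 2-fold changed with the treatment of low genes. On log2(TPM + 1), 434 genes were higher and 365 lower, 0 members were lower (Unc13a was still called, at -0.45), and 1 other pathway gene was lower. With 10 counts in every library, 613 genes were higher and 404 lower. Without a filter, 2 members (Unc13a and Syt3) and 5 other pathway genes were lower. Leaving out 1 library gave 15 to 18 members higher and 4 to 8 lower. Members with few reads, Unc13a, Rab3a, Sytl1 and Cplx2, carry the widest errors.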
